A study of Mus musculus with 9 samples.

Results

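The homeostatic microglia genes are 9 genes that resting microglia, the resident immune cells of the retina, express at high levels: Cx3cr1, P2ry12, Tmem119, Csf1r, Trem2, Tyrobp, Siglech, Gpr34 and Aif1. They were chosen by name, and every non-control array probe whose transcript maps to one of these symbols was taken. That gave 13 of the 39429 probes on the array and 9 of the 23889 genes tested. Retinal RNA was measured on 9 one-colour arrays, 3 for each of 3 groups of adult male C57BL/6 mice. The right eyes were injected intravitreally with the peptide AAP, the peptide HAN or phosphate-buffered saline (PBS), the negative control, and the retinas were taken after 7 days. The series title describes both peptides as binding vascular endothelial growth factor with high affinity, and the labels word a dose of 1 µM for PBS as well as for the peptides. Each group had 12 mice and each array measured a pool of 4 retinas, so n counts pools and the p-values rest on how far pools of 1 group lie apart. No uninjected eye was analysed here, so every group carries the injection itself.

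Microglia depend on a receptor tyrosine kinase, Csf1r, for survival, and sense their surroundings through receptors such as the fractalkine receptor Cx3cr1 and the nucleotide receptor P2ry12. Trem2, a lipid-sensing receptor, signals through the adaptor Tyrobp (DAP12), which carries an activation motif that recruits the kinase Syk. In other settings, microglia that become activated are known to lower genes of the resting state such as P2ry12 and Tmem119 and to raise genes such as Apoe, Spp1 and Trem2. In RNA from whole retina, fewer microglia and less RNA per microglial cell cannot be told apart.

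The values below are log2 signal relative to the array's 75th percentile, which set the scale of each array; they compare pools for a probe and not genes with each other. That percentile ran from 1340 intensity units (AAP 3) to 2349 (PBS 1), and 71.6% (AAP 3) to 79.2% (PBS 1) of spots were well above background. All 13 member probes were well above background on all 9 arrays, so each member passed the filter on dim probes. Pearson correlations between arrays across genes ran from 0.980 to 0.995 within groups and from 0.979 to 0.995 between groups. The 9 rod photoreceptor markers checked for the labelled tissue were well above background in every pool. The pools differed in RNA of neighbouring tissue: the mean of 13 skeletal muscle markers stood 4.97 (AAP 1) and 3.79 (AAP 3) above the PBS mean and within 0.24 of it in the other 7 pools. The mean of 12 lens markers ran from -2.05 to 2.35 in AAP, from 0.63 to 1.51 in HAN and from -2.30 to 1.25 in PBS, and that of 7 cornea, iris and ciliary body markers was 2.84 in AAP 1, 2.05 in PBS 1 and below 0 in the other 7 pools. All PBS pools and AAP 1 were on slide 1, AAP 2, AAP 3, HAN 1 and HAN 2 on slide 2, and HAN 3 on slide 3. No slide held both HAN and PBS.

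In the AAP retinas 8 of the 9 genes had a lower mean than in PBS, where 49.1% of all genes did, and their median log2 difference was -0.43 against 0.0032 for all genes. In the HAN retinas the same count was 8 of 9, where 48.6% of all genes did, with a median of -0.32 against 0.0049. Trem2 and Tyrobp had the lowest differences in both comparisons, with Trem2 at -1.01 in AAP and -0.80 in HAN, and Csf1r and the brighter Siglech probe had the smallest differences in AAP. None of the 9 genes passed the test in any of the 3 comparisons (limma, two-sided, Benjamini-Hochberg adjusted p under 0.05 over all genes), where 0.00419% of all genes passed in AAP against PBS, 0.00419% in HAN against PBS and 0% in AAP against HAN. Their adjusted p ran from 0.687 to 0.883 for AAP against PBS, from 0.508 to 0.886 for HAN against PBS and from 0.664 to 0.985 for AAP against HAN. Both peptide comparisons use the same 3 PBS pools, so they are given side by side and not as support for each other. AAP 3 and HAN 2 held most of the low values. Without AAP 3 the AAP median was -0.28, and without HAN 2 the HAN median was -0.13. With slide as a block the medians were -0.23 in AAP and -0.11 in HAN. In that fit the AAP value rests on AAP 1 alone against PBS, the only AAP pool on slide 1. The HAN value, here and below, links HAN 1 and HAN 2 to PBS through the AAP pools, and HAN 3, alone on its slide, does not count. With normexp background correction the HAN median was -0.065, with P2ry12, Tmem119 and Gpr34 above PBS. Siglech was below PBS in both groups after quantile normalisation.

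**Figure D1:**
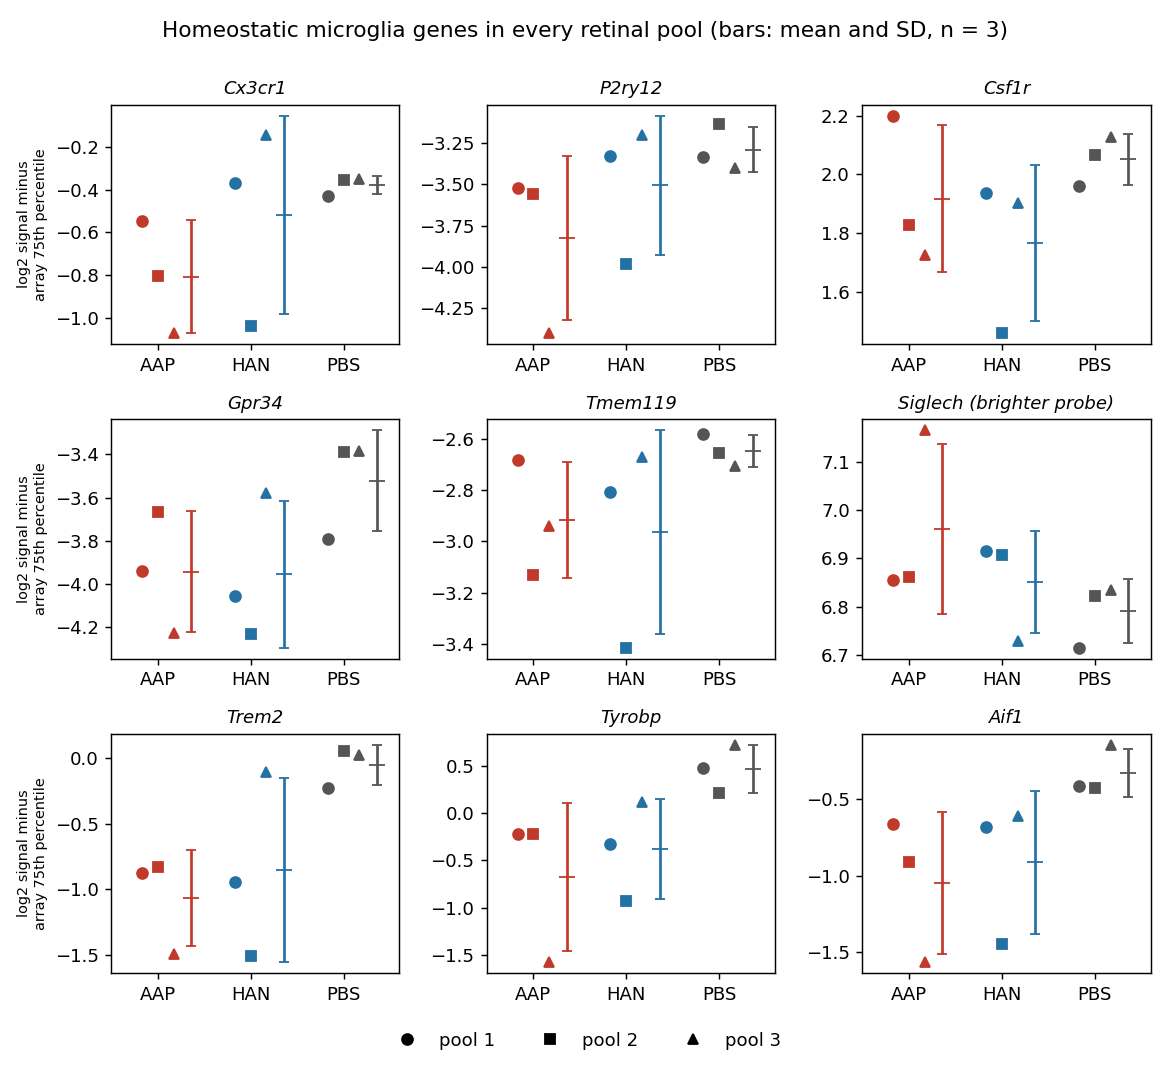
Log2 signal minus the array's 75th percentile (vertical axes, a different range for each gene) of the 9 homeostatic microglia genes in the AAP, HAN and PBS pools. Symbols are pools 1 to 3 of a group, and the bars beside them give the mean and SD (n = 3); Trem2 lies at or below -0.83 in the 3 AAP pools and at or above -0.23 in the 3 PBS pools, and HAN 2 is the lowest HAN pool in 8 of the 9 panels.

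The Trem2 receptor and its adaptor gave the largest differences. Trem2 was at -0.88, -0.83 and -1.49 in AAP 1, AAP 2 and AAP 3, at -0.94, -1.51 and -0.11 in HAN 1, HAN 2 and HAN 3, and at -0.23, 0.05 and 0.02 in PBS 1, PBS 2 and PBS 3. All 3 AAP pools were below all 3 PBS pools, while HAN 1 and HAN 2 were low and HAN 3 was inside the PBS range. The difference was -1.01 for AAP against PBS (95% interval -1.79 to -0.24, limma adjusted p = 0.687) and -0.80 for HAN against PBS (-1.58 to -0.02, adjusted p = 0.508). Within slide 1, AAP 1 stood -0.83 from PBS for Trem2. Without AAP 3 the AAP difference was -0.80, and without HAN 2 the HAN difference was -0.47.

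Tyrobp encodes the adaptor through which Trem2 and other myeloid receptors signal. It was at -0.22, -0.22 and -1.58 in AAP 1, AAP 2 and AAP 3, at -0.33, -0.93 and 0.12 in the HAN pools in the same order, and at 0.47, 0.21 and 0.72 in the PBS pools. Every AAP and every HAN pool was below every PBS pool, and AAP 3 was the lowest of the 9. The difference was -1.14 in AAP (-2.08 to -0.20, adjusted p = 0.692) and -0.85 in HAN (-1.78 to 0.09, adjusted p = 0.553). It was -0.69 within slide 1 and without AAP 3, and -0.57 in HAN without HAN 2.

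Aif1, the calcium-binding protein IBA1 that is widely stained to show microglia and macrophages, had the third largest difference. Its values were -0.66, -0.91 and -1.57 in AAP, -0.68, -1.45 and -0.61 in HAN and -0.41, -0.42 and -0.14 in PBS, for pools 1, 2 and 3. Both peptide groups lay wholly below PBS. The difference was -0.72 in AAP (-1.38 to -0.06, adjusted p = 0.717) and -0.59 in HAN (-1.25 to 0.07, adjusted p = 0.556). The AAP difference was -0.34 within slide 1 and -0.46 without AAP 3, and the HAN difference was -0.32 without HAN 2.

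Cx3cr1, the chemokine receptor that binds fractalkine from neurons, had HAN pools on both sides of the PBS range. It was at -0.54, -0.81 and -1.07 in AAP, -0.37, -1.04 and -0.15 in HAN and -0.43, -0.35 and -0.35 in PBS. All AAP pools were below PBS, whereas HAN 1 lay within the PBS range, HAN 3 above it and HAN 2 below it. The difference was -0.43 in AAP (-0.95 to 0.09, adjusted p = 0.747) and -0.14 in HAN (-0.66 to 0.38, adjusted p = 0.878). A dimmer Cx3cr1 probe gave -0.61 in AAP (-1.13 to -0.08, adjusted p = 0.732 among all probes) and -0.13 in HAN. For the brighter probe the AAP difference was -0.17 within slide 1, and without HAN 2 the HAN difference was 0.12.

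P2ry12, the ADP receptor that guides microglial processes to injury, had the same low pools as Cx3cr1. Its values were -3.52, -3.56 and -4.40 in AAP, -3.33, -3.99 and -3.20 in HAN and -3.33, -3.14 and -3.40 in PBS. AAP 3 and HAN 2 were the low pools, and AAP 1 and AAP 2 were just below the lowest PBS pool. The difference was -0.54 in AAP (-1.18 to 0.11, adjusted p = 0.747) and -0.22 in HAN (-0.86 to 0.43, adjusted p = 0.843). It was -0.23 within slide 1, -0.25 without AAP 3, and 0.025 in HAN without HAN 2.

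Gpr34, a receptor for lysophosphatidylserine, was at -3.94, -3.67 and -4.23 in AAP, -4.06, -4.23 and -3.58 in HAN and -3.79, -3.39 and -3.39 in PBS. PBS 1 was low among the PBS pools, so the groups overlapped in both comparisons. The differences were -0.42 in AAP (-0.91 to 0.07, adjusted p = 0.739) and -0.43 in HAN (-0.92 to 0.05, adjusted p = 0.557). Without AAP 3 the AAP difference was -0.28, without HAN 2 the HAN difference was -0.29, and within slide 1 the AAP difference was -0.42.

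Tmem119, a membrane protein used to tell microglia from blood-derived macrophages, was at -2.68, -3.13 and -2.94 in AAP, -2.81, -3.42 and -2.67 in HAN and -2.58, -2.66 and -2.71 in PBS. In each peptide group 1 pool lay within the PBS range. The differences were -0.27 in AAP (-0.72 to 0.18, adjusted p = 0.819) and -0.32 in HAN (-0.77 to 0.14, adjusted p = 0.628). They were -0.034 within slide 1 for AAP and -0.090 without HAN 2 for HAN.

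Csf1r, the receptor for the growth factors Csf1 and Il34, was measured by 3 probes. The brightest was at 2.20, 1.83 and 1.73 in AAP, 1.94, 1.46 and 1.90 in HAN and 1.96, 2.07 and 2.13 in PBS. AAP 1 was the highest of all 9 pools for it and HAN 2 the lowest. The difference was -0.13 in AAP (-0.51 to 0.24, adjusted p = 0.883) and -0.28 in HAN (-0.66 to 0.09, adjusted p = 0.599). The other 2 probes gave -0.15 and 0.11 in AAP and -0.56 and -0.09 in HAN, so the probes disagreed in direction for AAP. The AAP difference was 0.15 within slide 1 and -0.037 without AAP 3, and the HAN difference was -0.13 without HAN 2.

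Siglech, a sialic acid-binding lectin of microglia and plasmacytoid dendritic cells, was measured by 2 probes that did not behave alike. The brighter probe, which stands for the gene in the fit, had between 192247 and 246703 intensity units over the 9 pools. It was at 6.86, 6.86 and 7.16 in AAP, 6.92, 6.91 and 6.73 in HAN and 6.71, 6.82 and 6.83 in PBS, a difference of 0.17 in AAP (-0.06 to 0.40, adjusted p = 0.776) and 0.06 in HAN (-0.17 to 0.29, adjusted p = 0.886). AAP 3 was its highest pool on this scale, but its intensity there was the lowest of the 9 pools, 192247 units. The 75th percentile that was subtracted was also lowest in AAP 3, at 1340 units. The dimmer probe had between 119 and 415 units and was at -2.70, -2.85 and -3.49 in AAP, -2.53, -3.17 and -2.44 in HAN and -2.69, -2.51 and -2.68 in PBS. That probe had AAP 3 and HAN 2 as its low pools, like the other members, with a difference of -0.39 in AAP (-0.96 to 0.18, adjusted p = 0.795 among all probes) and -0.09 in HAN (-0.65 to 0.48, adjusted p = 0.940). Both probes are annotated to the same transcript, and which of them reports it was not tested.

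**Figure D2:**
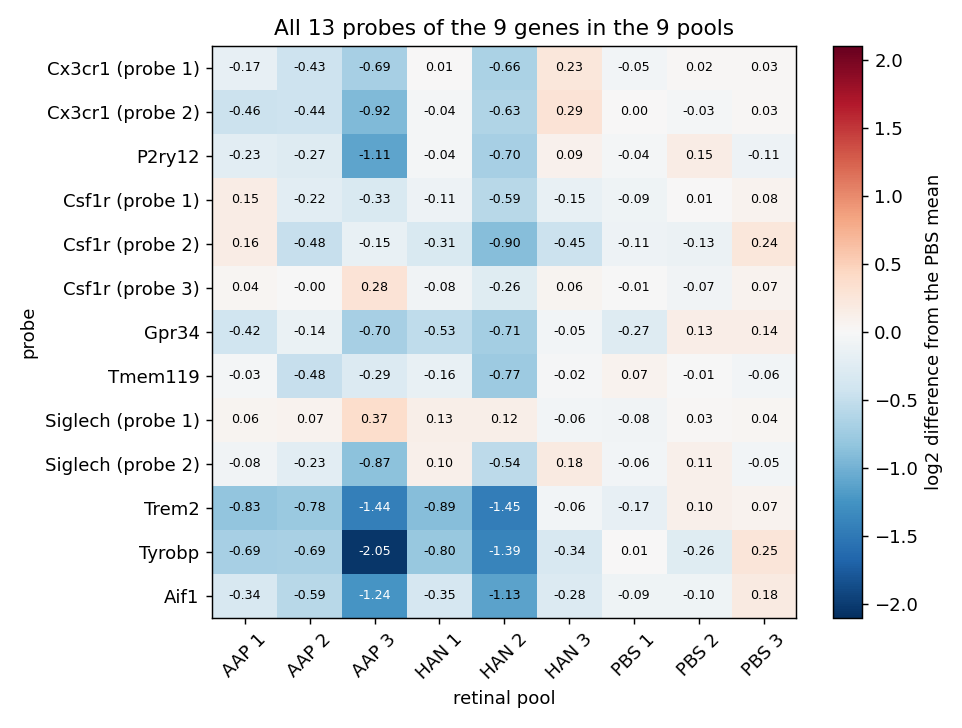
Log2 difference from the PBS mean (colour scale and printed values) of all 13 probes of the 9 genes, one row for each probe and one column for each of the 9 pools. The columns of AAP 3 and HAN 2 hold the lowest values, down to -2.05 for Tyrobp in AAP 3, while the first Siglech probe is at 0.37 and the third Csf1r probe at 0.28 in AAP 3.

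Across the members, 5 of 9 had all AAP pools below all PBS pools, namely Cx3cr1, P2ry12, Trem2, Tyrobp and Aif1, where 5.53% of all genes did. In HAN against PBS there were 3 of 9, Tyrobp, Aif1 and Csf1r, where 10.4% of all genes did. An unadjusted p under 0.05 with a lower mean was reached by 3 members in AAP, Trem2, Tyrobp and Aif1, where 2.68% of all genes did so, and by 1 in HAN, Trem2, where 4.21% did. With a higher mean it was reached by 0 members, where 4.09% of genes did in AAP and 5.45% in HAN. The brighter Siglech probe was the 1 member with all AAP pools above all PBS pools, where 6.43% of genes did, and 0 members had all HAN pools above all PBS pools, where 10.4% did. Before the percentile was subtracted, the intensities of that probe overlapped, at 192247 to 237919 units in AAP and 220992 to 246703 in PBS. HAN 2 was the lowest HAN pool for 8 of 9 members and AAP 3 the lowest AAP pool for 7 of 9. The members' median deviation from the PBS mean was -0.23, -0.43 and -0.70 in AAP 1, AAP 2 and AAP 3, -0.16, -0.71 and -0.06 in HAN 1, HAN 2 and HAN 3, and -0.08, 0.02 and 0.07 in PBS 1, PBS 2 and PBS 3. HAN 3 thus lay within the PBS range and the other 5 peptide pools below it. The mean SD of a member was 0.37 over the AAP pools, 0.41 over the HAN pools and 0.13 over the PBS pools.

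**Figure D3:**
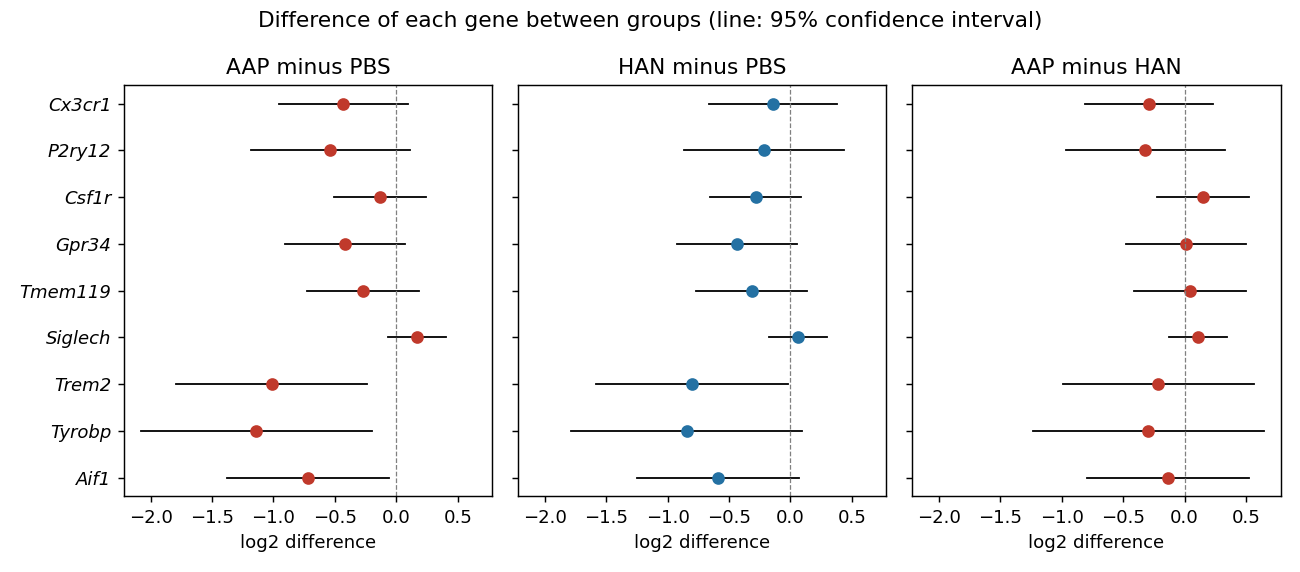
Log2 difference of each of the 9 genes (horizontal axes) in AAP minus PBS, HAN minus PBS and AAP minus HAN; points are differences of group means over 3 pools a group and lines are 95% confidence intervals from limma. Trem2 has intervals that end below 0 in both comparisons with PBS, Tyrobp and Aif1 in AAP minus PBS, and every interval of AAP minus HAN holds 0.

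Trem2 and Tyrobp were lower relative to Cx3cr1 in all 6 peptide pools than the PBS mean. The deviation of Trem2 from its PBS mean minus that of Cx3cr1 was -0.66, -0.35 and -0.74 in AAP, -0.90, -0.79 and -0.29 in HAN and -0.12, 0.08 and 0.05 in PBS. For Tyrobp against Cx3cr1 the same quantity was -0.52, -0.26 and -1.35 in AAP, -0.81, -0.73 and -0.58 in HAN and 0.06, -0.28 and 0.23 in PBS. The Trem2 values of the peptide pools did not overlap with PBS, whereas the Tyrobp value of AAP 2 lay within the PBS range. Tyrobp minus Trem2 ran from -0.61 to 0.13 in AAP, from -0.29 to 0.09 in HAN and from -0.36 to 0.18 in PBS, which overlap. These pairs of genes were picked after their values were seen, so no test is given.

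AAP and HAN, given at the same labelled dose and time, were compared directly. In AAP minus HAN 5 of the 9 genes were lower and 4 higher, where 49.7% of all genes were lower, with a median of -0.14 against 0.0015 for all genes. An unadjusted p under 0.05 was reached by 0 members, where 4.26% of all genes were lower and 4.28% higher at that level, and no member's pools were separate between the peptides, where 6.81% of all genes had all AAP pools below all HAN pools and 7.51% above. The differences ran from -0.32 (P2ry12, -0.97 to 0.33) through -0.29 for Cx3cr1 (-0.81 to 0.23) to 0.15 (Csf1r, -0.22 to 0.52), and the interval of each member held 0. The intervals for Tyrobp (-1.23 to 0.64) and Trem2 (-0.99 to 0.56) were the widest of the 9. The median took either sign with single pools left out: it was 0.057 without AAP 3, 0.050 without HAN 3 and -0.40 without HAN 2. Within slide 2, where AAP 2 and AAP 3 were set against HAN 1 and HAN 2, it was 0.064.

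Promoter sequences of 5 of the 9 members were found in the RefSeq table of the build GRCm38.p6, and 4 are shown because they belong to 4 members whose AAP pools all lay below PBS (Trem2, Aif1, Cx3cr1 and P2ry12). Each window of 300 bases runs from 250 bases before to 50 after the annotated start, written on the gene's strand as the table gives it. Capitals mark the letters GAGGAA on either strand (TTCCTC where they lie on the other strand), the core that PU.1, a transcription factor that specifies the myeloid lineage, recognises. The windows are chr17:48346151-48346450 (plus strand) for Trem2, chr17:35176003-35176302 (minus) for Aif1, chr9:120068247-120068546 (minus) for Cx3cr1 and chr3:59262936-59263235 (minus) for P2ry12.
Trem2: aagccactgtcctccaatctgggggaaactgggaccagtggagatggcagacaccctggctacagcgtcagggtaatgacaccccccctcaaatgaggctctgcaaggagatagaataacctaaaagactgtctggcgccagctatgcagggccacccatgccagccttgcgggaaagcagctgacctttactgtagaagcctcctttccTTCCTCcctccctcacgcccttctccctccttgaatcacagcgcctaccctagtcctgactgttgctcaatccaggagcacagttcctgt
Aif1: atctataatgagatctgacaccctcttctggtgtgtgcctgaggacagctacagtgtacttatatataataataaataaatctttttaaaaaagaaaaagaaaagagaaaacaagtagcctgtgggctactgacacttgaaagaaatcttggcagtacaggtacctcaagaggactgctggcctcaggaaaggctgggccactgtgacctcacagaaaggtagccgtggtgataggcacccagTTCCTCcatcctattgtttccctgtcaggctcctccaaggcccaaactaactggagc
Cx3cr1: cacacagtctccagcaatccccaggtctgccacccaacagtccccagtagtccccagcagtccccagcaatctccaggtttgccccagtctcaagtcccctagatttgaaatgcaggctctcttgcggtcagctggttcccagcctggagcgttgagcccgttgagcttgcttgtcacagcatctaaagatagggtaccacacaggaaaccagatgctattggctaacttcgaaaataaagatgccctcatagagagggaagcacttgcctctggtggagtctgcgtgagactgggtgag
P2ry12: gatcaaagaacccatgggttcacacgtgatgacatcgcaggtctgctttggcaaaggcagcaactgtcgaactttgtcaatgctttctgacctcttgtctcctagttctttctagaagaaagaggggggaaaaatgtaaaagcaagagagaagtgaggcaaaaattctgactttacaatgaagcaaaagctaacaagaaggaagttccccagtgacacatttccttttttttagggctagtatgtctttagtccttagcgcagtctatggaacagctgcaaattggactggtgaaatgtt
The letters occurred once in Trem2, once in Aif1 and once in Siglech, and not in the Cx3cr1 and P2ry12 windows; counted from the start, the first base was at -40 in Trem2 and at -7 in Aif1. Over all 32851 windows of the table, 28.3% held them. TGTGGT, a core bound by RUNX factors, was found in 2 of the 5 windows, Cx3cr1 and Siglech, and in 16.8% of all windows; it shares no bases with the GAGGAA matches. A match is a run of letters and not a measured binding site.

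Of the other genes of these pathways, the ligands and signalling partners differed from PBS mainly in AAP 2, AAP 3 and HAN 2. Among 15 listed genes 14 were tested, and 12 of 14 were lower in AAP (median -0.32) and 9 of 14 in HAN (median -0.15). The shares of all genes that were lower were 49.1% in AAP and 48.6% in HAN. None passed, where 0.00419% of all genes did in each comparison. In AAP 3, 1 of the 14 was not well above background and is counted, having passed the filter through another group. The list's median deviation was -0.049, -0.27 and -0.66 in AAP 1, AAP 2 and AAP 3, -0.051, -0.31 and -0.060 in HAN 1, HAN 2 and HAN 3, and from -0.12 to 0.086 in PBS, so AAP 1, HAN 1 and HAN 3 lay inside the PBS range. The lipid phosphatase Inpp5d (SHIP1), a brake on signalling from Tyrobp, was at -1.90, -2.17 and -2.25 in AAP, -1.93, -2.24 and -1.99 in HAN and -1.80, -1.70 and -1.70 in PBS. All peptide pools were below PBS, with differences of -0.37 in AAP (-0.64 to -0.11, adjusted p = 0.674) and -0.32 in HAN (-0.59 to -0.06, adjusted p = 0.463). Vav1, a guanine nucleotide exchange factor of haematopoietic cells, differed by -0.70 in AAP (adjusted p = 0.727) and -0.59 in HAN (adjusted p = 0.561), and the growth factor Csf1, a ligand of Csf1r, by -0.69 in AAP (adjusted p = 0.730). Hcst, the adaptor DAP10, differed by -0.20 in HAN (adjusted p = 0.568), by -0.11 without HAN 2 and by 0.27 with normexp. Within slide 1 the AAP differences were -0.17 for Inpp5d, -0.28 for Vav1 and -0.29 for Csf1, and with slide as a block the HAN differences were -0.043 for Inpp5d and -0.16 for Vav1. Without AAP 3 Csf1 differed by -0.33 in AAP, and without HAN 2 Vav1 differed by -0.29 in HAN. Lyn was not well above background on any array.

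Transcription factors of microglia showed no common direction in their group means. Of 12 listed, 10 were tested, with 7 lower in AAP (median -0.07) and 4 lower in HAN (median 0.05). For all genes the shares were 49.1% and 48.6%. The list's median deviation was 0.0051, -0.15 and -0.40 in AAP 1, AAP 2 and AAP 3 and 0.088, -0.20 and 0.15 in HAN 1, HAN 2 and HAN 3. In PBS it ran from -0.056 to 0.11. Irf8, which microglial development requires, was at -2.23, -2.54 and -3.02 in AAP, -2.26, -2.76 and -2.14 in HAN and -2.00, -2.02 and -1.99 in PBS, so that every peptide pool was below PBS. It differed by -0.60 in AAP (-1.10 to -0.09, adjusted p = 0.693) and by -0.38 in HAN (-0.89 to 0.13, adjusted p = 0.602). Mef2c and Mef2a, which neurons and muscle also express, differed by 0.23 (Mef2c, AAP, adjusted p = 0.757), 0.24 (Mef2c, HAN, adjusted p = 0.582) and -0.53 (Mef2a, HAN, adjusted p = 0.436). Within slide 1 the AAP differences were -0.23 for Irf8 and 0.0012 for Mef2c, and with slide as a block the HAN differences were 0.041 for Irf8 and -0.12 for Mef2c. Without AAP 3 they were -0.38 for Irf8 and 0.081 for Mef2c in AAP, and without HAN 2 Irf8 differed by -0.19 in HAN. Spi1, which encodes PU.1, was not well above background on any array, and Ikzf1 on 1.

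Among 30 other microglia-enriched genes 27 were tested, and 24 of 27 were lower in each peptide group, with medians of -0.32 in AAP and -0.27 in HAN. Of all genes 49.1% were lower in AAP and 48.6% in HAN. All AAP pools lay below all PBS pools for 14 of 27, where 5.53% of all genes did so, and all HAN pools for 7 of 27, where 10.4% did. In AAP 1, AAP 2 and AAP 3, 1, 2 and 5 of the 27 were not well above background, and 2 were not in HAN 2. The counts and medians include these genes, Cd53 among them, which passed the filter through another group. The lysosomal membrane protein gene Laptm5 was at -2.48, -2.82 and -3.57 in AAP, -2.31, -2.88 and -2.01 in HAN and -1.75, -1.78 and -2.19 in PBS, a difference of -1.05 in AAP (-1.78 to -0.32, adjusted p = 0.674) and of -0.57 within slide 1. Fcrls, an Fc receptor-like gene of microglia, was nearly level over the AAP pools, at -2.36, -2.35 and -2.34, against -2.20, -2.07 and -1.93 in PBS, and differed by -0.28 in AAP (adjusted p = 0.674) and -0.30 in HAN (adjusted p = 0.428); with normexp these were -0.17 and 0.076. The tetraspanin gene Cd53 was well above background in 0 AAP, 2 HAN and 3 PBS pools; it entered the test through PBS, so no difference is given. Havcr2 (TIM-3) differed by -0.61 in HAN (adjusted p = 0.496), and by 0.59 with normexp. Itgam, the integrin CD11b, differed by 0.42 in HAN (0.19 to 0.64, adjusted p = 0.371) by its brightest probe, with mean levels of 5.84 in HAN and 5.42 in PBS. Of its other 2 probes 1 had the opposite sign, and which of the probes reports the gene was not tested.

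Of 22 listed genes that activated microglia are known to raise, 21 were tested. Lower means were found for 19 of 21 in each peptide group, with medians of -0.40 in AAP and -0.30 in HAN. Of all genes 49.1% were lower in AAP and 48.6% in HAN. The list's median deviation was -0.29, -0.37 and -1.20 in AAP 1, AAP 2 and AAP 3. In AAP 3, 5 of the 21 were not well above background, and 1 was not in HAN 2. The counts and medians include these genes. They passed the filter through another group, so their direction may in part be set by the filter. Which cells gave these values, and whether activation differed, was not tested. Spp1 (osteopontin), which retinal ganglion cells also express, was at -2.49, -2.15 and -2.88 in AAP, -2.30, -2.12 and -2.12 in HAN and -1.55, -1.77 and -1.70 in PBS. Both peptide groups lay wholly below PBS, as 5.53% of all genes did in AAP and 10.4% in HAN. Spp1 differed by -0.83 in AAP (-1.22 to -0.43, adjusted p = 0.627) and by -0.50 in HAN (-0.90 to -0.11, adjusted p = 0.444). The lysosomal proteases Ctsz and Ctsd differed by -0.35 and -0.32 in AAP (adjusted p = 0.632 and 0.693) and by -0.30 and -0.33 in HAN (adjusted p = 0.428 and 0.451). No member of the list passed in either comparison, where 0.00419% of all genes passed in each.

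Markers of other cells also differed between the pools. The 11 reactive glia genes, such as Gfap and Timp1, were all lower in both peptide groups, with medians of -1.41 in AAP and -0.43 in HAN. Lower means were found for 49.1% of all genes in AAP and 48.6% in HAN. None of the 11 passed. The mean deviation of these 11 genes was -0.83, -1.07 and -2.65 in AAP 1, AAP 2 and AAP 3 and -0.34, -1.06 and -0.29 in HAN 1, HAN 2 and HAN 3. AAP 3 was thus the lowest AAP pool and HAN 2 the lowest HAN pool, as for the members' mean, but AAP 2 was about as low as HAN 2. Their summed level ran from 6.91 to 17.4 times the array's 75th percentile in AAP, from 15.3 to 25.2 in HAN and from 25.2 to 31.3 in PBS. Monocyte and neutrophil markers, 6 of 9 tested, had mean deviations of -1.04 to 0.32 in AAP, -1.12 to -0.54 in HAN and -0.69 to 0.43 in PBS; Ccr2 was well above background on 2 arrays. Border macrophage markers, 9 of 10 tested, ran from -0.96 to 1.25 in AAP, -0.26 to -0.16 in HAN and -0.79 to 0.65 in PBS, with Cd163 above background on 1 array. Lymphocyte markers, 6 of 8 tested, ran from -0.04 to 0.12 in AAP, -0.19 to 0.17 in HAN and -0.17 to 0.09 in PBS, with Cd3g above background on 0 arrays and Cd8a on 1. Mueller glia markers kept within 0.18 of the PBS mean in every pool. The part of these cells in the members' values was not tested.

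**Figure D4:**
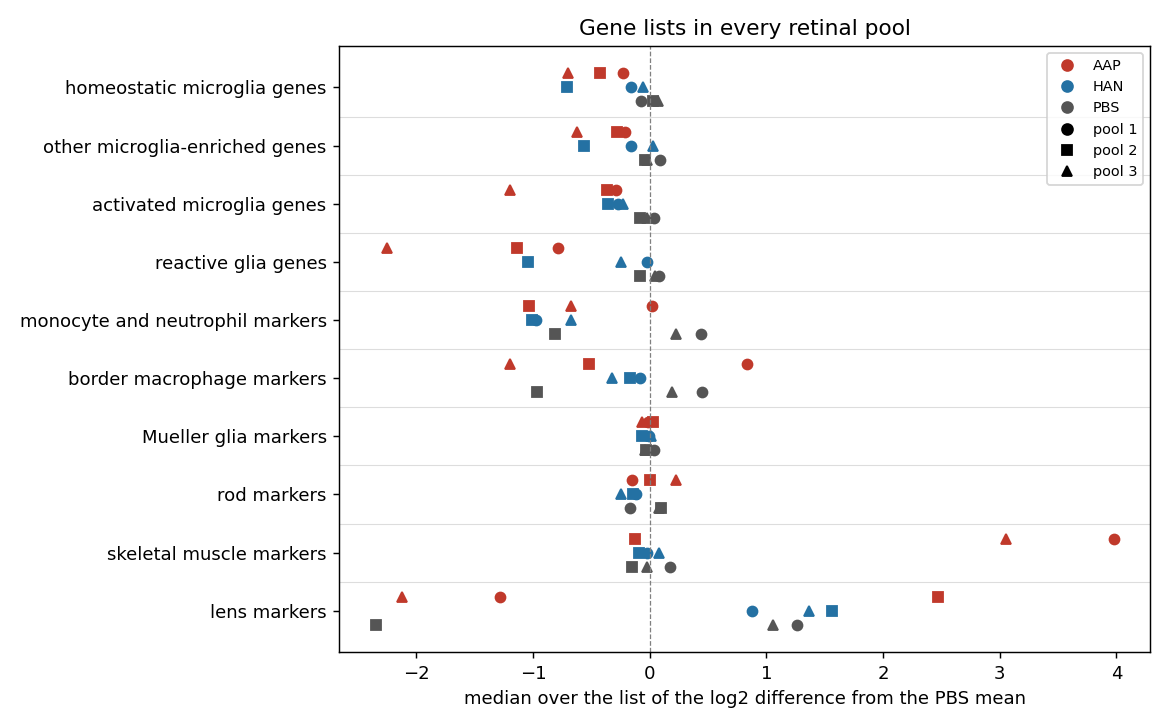
Median over each gene list of the log2 difference from the PBS mean (horizontal axis) for 10 lists (rows), with 1 point for each of the 9 pools; colours are groups and symbols are pools 1 to 3. The homeostatic microglia genes run from -0.70 to -0.23 in AAP, from -0.71 to -0.06 in HAN and from -0.08 to 0.07 in PBS, and the reactive glia genes reach -2.25 in AAP 3.

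The genes most like the members over the 9 pools were found among 15499 curated genes by the root mean square difference between a gene's centred profile and the members' mean profile. The closest were Vsir (0.09), Irf8 (0.09), Fcer1g (0.11), Crym (0.12), Amz1 (0.12), Vcam1 (0.14), H2-K1 (0.14) and Slc40a1 (0.14), against a median of 0.34 over all curated genes and 0.31 for a flat profile. Vsir encodes an immune checkpoint protein, Fcer1g an Fc receptor subunit with a signalling motif like that of Tyrobp, and Slc40a1 the iron exporter ferroportin. Vsir and Irf8 are also in the lists above. Vsir had centred values of 0.10, -0.21 and -0.47 in AAP, 0.05, -0.51 and 0.32 in HAN and 0.28, 0.22 and 0.23 in PBS. These genes were picked for likeness to the members' profile, so sharing its low pools, AAP 3 and HAN 2, follows from the choice. Among the members themselves Cx3cr1 lay closest to the mean profile (0.13) and the brighter Siglech probe farthest (0.42). With AAP 3 left out 3 of the 8 genes stayed among the closest, and likewise 3 with HAN 2 left out.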

How the data were processed

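Total RNA of 9 retinal pools was labelled with Cy3, per the labels' protocols. Per the file headers, the authors quantified spots with Agilent Feature Extraction 11.0.1.1 (protocol GE1_1100_Jul11, design annotated on mm9), and the deposited processed signal is a linear intensity, background-subtracted and detrended within each array and not normalised between arrays. The deposited value table equalled the mean processed signal of a probe within a tolerance of 0.0001 for at least 99.8% of values in each array, with column medians of 165 (AAP 3) to 298 (PBS 1); it is thus linear and uncentred. No source used here states how the authors compared groups. Control spots and 103 to 160 outlier spots an array were left out, and no spot was saturated. The log2 signal minus the array's 75th percentile was used, spots of a probe were averaged, and probes well above background on all arrays of at least 1 group were kept. A gene was taken by its brightest kept probe. Probes were named through transcript accessions in a RefSeq table of GRCm38.p6, which matched 26055 probes to 19751 symbols. All 23889 genes were fitted together in limma 3.58.1 under R 4.3.3, with group means as coefficients and 6 residual and 1.85 prior degrees of freedom; half-widths of 95% intervals had a median of 1.18-fold. The number of arrays limits the precision. The fit was tested on simulated data. Named genes were the members, the 3 with the smallest p of each pathway list in each comparison with PBS, and the 8 genes most like the members; 1 gene this rule names is not reported here. Members, lists and alternatives were chosen with earlier results of these data known. Normexp used the median spot signal, in place of the planned mean spot signal. Same-numbered pools shared only a number.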

Additional observations from a re-analysis of the deposited data

How the results depend on the processing

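No member passed in any comparison under any alternative run (lowest adjusted p 0.262 for AAP against PBS, 0.124 for HAN against PBS and 0.513 for AAP against HAN). The direction of a member was kept in 204 of 207 results for AAP against PBS, 195 of 207 for HAN against PBS and 187 of 207 for AAP against HAN. Part of each count was fixed in advance, because some alternatives cannot change a member's difference. Examples are leaving out a pool of the group not compared, the filters on dim probes, the replicate block and fitting only the 2 groups compared. Over single pools left out, the members' median ran from -0.56 to -0.28 for AAP against PBS, from -0.46 to -0.13 for HAN against PBS and from -0.40 to 0.057 for AAP against HAN. The other alternatives, single pools aside, moved the medians against PBS by less than the spread between pools, 0.25, except HAN against PBS with normexp (-0.065). For AAP against HAN the median was 0.064 with slide as a fixed block, 0.033 with array weights and 0.012 without AAP 1 and AAP 3. The deposited value table, array median scaling and the Siglech probe chosen (an alternative added after the data were seen, as was leaving Siglech out) kept all 3 medians below 0.

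Genes called for AAP against PBS, 1 in all, numbered 0 with normexp, quantile normalisation, array median scaling, no filter on dim probes, the replicate block, without AAP 1 and AAP 3, or with only the 2 groups compared, and 46 with slide as a fixed block. For HAN against PBS, also 1, they numbered 0 with normexp or the replicate block, 2 with slide as a fixed block and 3 with array weights. With single pools left out they ran from 0 to 12 (AAP against PBS), from 1 to 3 (HAN against PBS) and from 0 to 13 (AAP against HAN). The replicate block rests on shared numbers only: same-numbered pools correlated in their deviations between -0.28 and 0.40. Each group has 1 pool of each number, so this block cannot change a difference or its direction, and no member was called with it.

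Signs turned with adjusted p of 0.586 or more, and the cause was not tested. With normexp, HAN against PBS was 0.22 for P2ry12, 0.12 for Tmem119, -0.041 for Siglech, 0.13 for Gpr34, 0.076 for Fcrls, 0.59 for Havcr2 and 0.27 for Hcst, and AAP against HAN was -0.21 for Tmem119 and -0.30 for Gpr34. Siglech was -0.034 (AAP) and -0.066 (HAN) against PBS with quantile normalisation, and -0.11, -0.013 and -0.097 in the 3 comparisons with the mean of its probes. With slide as a fixed block, Csf1r was 0.15 in AAP against PBS; in HAN against PBS Cx3cr1 was 0.067, P2ry12 0.093, Csf1r 0.070, Siglech -0.037, Mef2c -0.12 and Irf8 0.041; and in AAP against HAN Trem2 was 0.064. With array weights AAP against HAN was 0.069 for Trem2, 0.027 for Tyrobp and 0.033 for Aif1; without AAP 1 and AAP 3 it was -0.17 for Tmem119, 0.021 for Trem2 and 0.16 for Tyrobp. With single pools left out, AAP against HAN ran from -0.18 to 0.19 for Tmem119, from -0.13 to 0.20 for Gpr34, from -0.57 to 0.16 for Tyrobp, from -0.40 to 0.13 for Aif1, from -0.0023 to 0.25 for Csf1r and from -0.54 to 0.16 for Trem2, and HAN against PBS from -0.33 to 0.12 for Cx3cr1 and from -0.37 to 0.025 for P2ry12.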
